A study of Mus musculus with 15 samples.

Results

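Fragments of the tRNAs that carry threonine, isoleucine and methionine were examined in mouse sperm. A tRNA fragment (tRF) is named here by its amino acid and anticodon, so that ThrAGT stands for all fragments assigned to threonine tRNAs with the anticodon AGT. The 6 members are ThrAGT, ThrCGT, ThrTGT, IleAAT, IleTAT and MetCAT, which are the nuclear tRNAs that read codons beginning with A and followed by C or U. They were chosen by name from the 47 tRFs of the table.

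Small RNA of caudal epididymal sperm was sequenced in 15 libraries of C57BL/6 males (C57BL/6NTac in the study's methods). The F0 generation gave 3 CO and 4 OID libraries, and the F1 generation 4 of each. F0 males received a control diet (CO) or a lard-based obesity-inducing diet (OID) for 7 weeks from 3 weeks of age, and were mated at 10 weeks with females on the control diet. F1 males are their sons, all fed the control diet, so that CO and OID name the diet of the father there. The age of the F1 males at collection is not given in the sources used here, and sperm was treated with a somatic cell lysis buffer before RNA was extracted in all 4 groups.

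Sperm carry little intact tRNA and many fragments of it, most of them 5′ fragments made by cleavage in or near the anticodon loop, and fragments of GlyGCC and GluCTC are the best known of these. The tRNAs studied here belong to a chemical class, since tRNAs that read codons beginning with A carry the modified nucleoside t6A on the adenosine next to the anticodon. The first anticodon base of ThrAGT and IleAAT is an adenosine that is deaminated to inosine, which lets 1 tRNA read several codons. IleTAT is the rare isoleucine tRNA that reads AUA, its gene contains an intron, and MetCAT pools the initiator tRNA that starts every protein with the elongator tRNA that inserts internal methionine.

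The NCBI RefSeq table for GRCm38 lists 49 loci for these 6 anticodons, of which 9 are ThrAGT, 4 ThrCGT, 4 ThrTGT, 15 IleAAT, 1 IleTAT and 16 MetCAT. Of the 49 loci, 26 lie on chromosome 13 and 7 on chromosome 11. Set against GENCODE M21, 38 lie outside annotated genes, 9 in introns and 2 in exons. Sequences could be read for 1 ThrAGT locus and for the single IleTAT locus. These are shown as full-length genes with the anticodons of 2 of the 6 members. Reads are given by anticodon and not by locus, so which of the 9 ThrAGT loci the fragments came from is not known. The mitochondrial threonine and methionine tRNAs are printed beside them because they carry the anticodons of ThrTGT and MetCAT, and the sources used here do not say in which entry their reads were counted. In the lines that follow, DNA letters run 5′ to 3′ on the strand of the tRNA, and capitals mark the anticodon.
ThrAGT, n-TTagt9, chr7:35234770-35234843, minus strand: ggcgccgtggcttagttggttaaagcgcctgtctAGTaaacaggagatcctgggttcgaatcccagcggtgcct
IleTAT, n-TItat14, chr13:21896938-21897031, minus strand: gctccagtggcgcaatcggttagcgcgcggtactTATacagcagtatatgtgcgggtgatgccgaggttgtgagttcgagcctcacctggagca
Mitochondrial threonine tRNA, mt-Tt, chrM:15289-15355, plus strand: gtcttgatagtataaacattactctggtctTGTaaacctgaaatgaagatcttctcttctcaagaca
Mitochondrial methionine tRNA, mt-Tm, chrM:3845-3913, plus strand: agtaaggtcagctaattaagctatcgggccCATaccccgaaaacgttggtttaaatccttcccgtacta

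An A followed the anticodon in 4 of these 4 genes. In nuclear tRNAs of this class that base receives t6A, and its modification was not measured here. The first 30 bases, the shortest stretch that a 5′ fragment of the excised size would hold, were compared. This ThrAGT gene and the IleTAT gene were identical at 18 of these positions. Reads that fit more than 1 tRNA were shared out by the authors with weights. The IleTAT gene is 94 bases long because it still holds its intron, against 74 for ThrAGT.

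The IleTAT gene also lies wholly inside the hairpin that RefSeq annotates as miR-1983, at chr13:21896918-21897049, and so counts as exonic. The mature miR-1983 is shown because it shares bases with the tRNA, and its capitals mark the 13 bases that are the 3′ end of the tRNA gene, the other 8 lying beyond it.
miR-1983: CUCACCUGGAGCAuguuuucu
The entry of this miRNA in the same table held 11 reads in all, 0 to 4 in a library, and was above 0 in 6 of 14 sets of miRNA values, since OID F1 replicates 1 and 2 carry the same miRNA values and were counted once. The 4 reads were in CO F1 replicate 1, where the IleTAT entry held 1232. The mature miRNA has 21 bases, under the 30 to 45 nucleotides that were excised, so these reads do not measure its level. Which part of the hairpin they covered is not known.

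**Figure D1:**
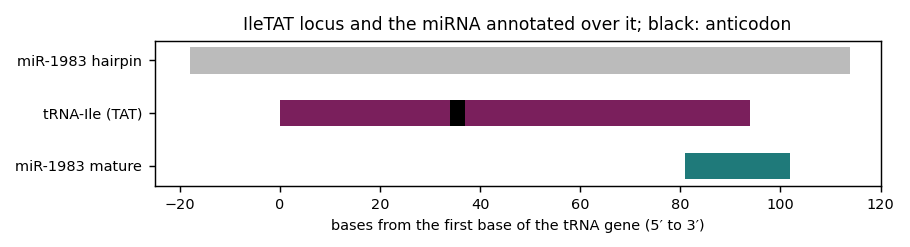
Map of the single IleTAT locus, with the distance in bases from the first base of the tRNA gene on the x axis, the miR-1983 hairpin in grey, the tRNA gene in purple with its anticodon in black, and the mature miRNA in green. The tRNA gene of 94 bases lies inside the hairpin, and the mature miRNA overlaps its last 13 bases.

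The deposited values are whole numbers divided by 1 factor per library, to which 0.5 was added, so that these whole numbers could be recovered. They are taken as reads here. The authors describe weights for shared reads, and whether weighted reads were rounded is not known. The libraries held from 17966 to 5363471 tRF reads, and 2 of them were under 100000, CO F0 replicate 3 (17966) and CO F1 replicate 2 (35677). OID libraries were deeper by the median, 4.30-fold for F0 and 4.73-fold for F1 males (two-sided exact permutation tests on log2 depth, p = 0.114 and 0.0857). In their tRF reads, replicates of a group differed by more than sampling noise in all 21 same-group pairs, and p-values rest on the spread between these libraries. Each library was treated as independent. The labels do not say which father a son had, or whether sons were siblings. The miRNA entries of OID F1 replicates 1 and 2 were identical in reads in 164 of 164 entries, 68 of them above 0, which held for 1 of 105 pairs of libraries, while 0 of 47 tRFs had the same reads in both. These miRNA values are therefore 1 set listed for both males, and which male they belong to cannot be told. The sperm-associated Mir34b, Mir34c and Mir449a had at most 4 summed reads in any library, so the cell type could not be checked from them. Blood, smooth muscle and liver miRNAs (Mir451a, Mir144, Mir143, Mir145a and Mir122) summed to 1 to 25 reads in a library. Their share of miRNA reads ran from 5.11% to 23.9% in CO and from 0.398% to 32.1% in OID males of F0, and from 1.02% to 15.9% in CO sons and from 0.663% to 2.73% in OID sons, the last with the shared set in it. The highest shares were those of OID F0 replicate 2 (25 of 78 reads, 32.1%) and CO F0 replicate 3 (17 of 71 reads, 23.9%). Mir144 and Mir122 had reads in 3 and 2 libraries and were at 0 in the others. RNA of 30 to 45 nucleotides was excised for these libraries, above the length of mature miRNAs. The shares therefore do not measure how many cells of these types were present. In such bulk samples, fewer cells of a type and less RNA per cell cannot be told apart.

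MetCAT was by far the most abundant of the 6. Its normalized value over the 15 libraries was 3475 ± 915 (SD, n = 15), and it ranked between 12th and 19th of the 47 tRFs, with a median rank of 15. IleAAT followed with 554 ± 232, ThrAGT with 429 ± 164, ThrCGT with 231 ± 119, ThrTGT with 205 ± 107 and IleTAT with 189 ± 81.7 (SD, n = 15 in each case). The order was the same when values were divided by the mean length of the genes, and MetCAT was first in 15 of 15 libraries on both scales.

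Within that order, MetCAT exceeded IleAAT in 15 of 15 libraries, by 2.72 ± 0.79 (SD) on the log2 scale. ThrAGT exceeded ThrCGT in 14 of 15, by 0.96 ± 0.68. The other neighbours did not differ beyond their spread. IleAAT was above ThrAGT in 11 of 15 libraries, with a log2 difference of 0.37 ± 0.56, ThrCGT was above ThrTGT in 8 of 15, with 0.15 ± 1.10, and ThrTGT was above IleTAT in 6 of 15, with 0.09 ± 0.95. Divided by the number of listed loci, the mean value was 217 for MetCAT and 189 for the single listed IleTAT gene, against 36.9 to 57.8 for the other members. These values depend on the annotation. The loci n-TIaat15, n-TIaat16 and n-TIaat17, listed as IleAAT, are 96, 95 and 93 bases long, near the 94 of IleTAT. Their sequences could not be read, so their anticodons were not checked.

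The 6 members together held a small part of the tRF reads, 0.662% ± 0.117 for CO and 0.786% ± 0.37 for OID males of F0 (SD, n = 3 and 4), and 0.78% ± 0.169 for CO and 0.77% ± 0.181 for OID sons (SD, n = 4 each). MetCAT made up 69.8% ± 10.2, 76.4% ± 11.1, 61.5% ± 13.3 and 64.6% ± 5.04 of the members' reads in the same order of groups. The groups overlapped in both quantities within their SDs. The depth behind the rarer members was low in the shallowest library, where CO F0 replicate 3 held 3 reads of ThrAGT, 6 of ThrCGT, 1 of ThrTGT, 9 of IleAAT, 3 of IleTAT and 75 of MetCAT, and a single read there stood for a value of 48.2.

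**Figure D2:**
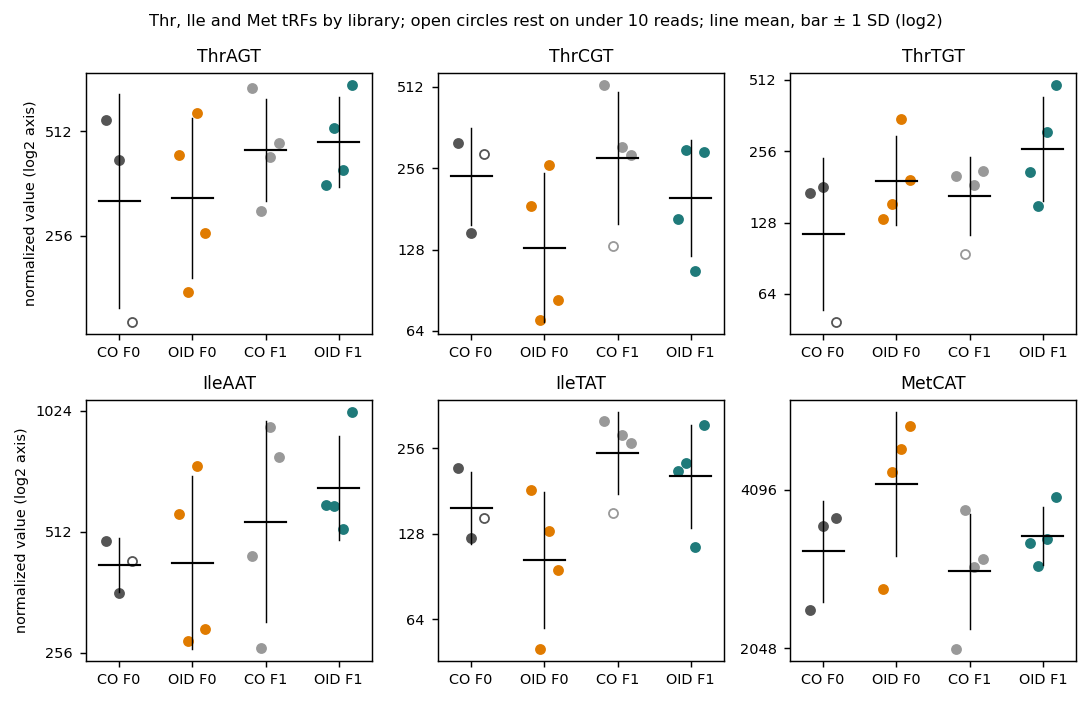
Normalized value of each member (y axis, log2 scale) in each library of the 4 groups (x axis), with the mean and 1 SD of the log2 values as line and bar, and open circles for values that rest on under 10 reads. The groups overlap for all 6 members, and MetCAT lies between 2041 and 5410.1.

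In F0, the first question was whether the father's own diet changed these fragments. No member passed the test, and for no member did the OID and CO groups separate. The 3 members with the largest differences were ThrCGT, which was lower on average in OID males, ThrTGT, which was higher, and IleTAT, which was lower. Counts of calls rest on limma fits over log2(value + 1), with Benjamini-Hochberg adjustment over all 47 tRFs. An adjusted p under 0.05 was reached by 0 of 6 members, beside 0% of the 47 tRFs. An unadjusted p under 0.05 was reached by 0 of 6, beside 21.3% of all tRFs, and groups without overlap were found for 0 of 6, beside 21.3% of all tRFs.

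ThrCGT, the threonine tRNA that reads ACG, had values of 317, 148 and 289.6 in CO F0 and 186, 70.3, 263 and 83.1 in OID F0. All 4 OID values were under the CO median, but the 148 of a CO male lay within the OID range. OID against CO gave a log2 fold change of -0.87 (SE 0.54, limma adjusted p = 0.436).

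ThrTGT, which reads ACA, had values of 171, 181 and 48.7 in CO F0 and 132, 153, 351 and 193 in OID F0. Of the OID males, 2 were above all CO males and 2 were between them. The log2 fold change was 0.74 (SE 0.55, limma adjusted p = 0.513), and it was 0.13 without CO F0 replicate 3, in which ThrTGT rests on 1 read.

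ThrAGT, whose inosine lets it read several threonine codons, had values of 551, 424 and 145 in CO F0 and 438, 177, 576 and 261 in OID F0. Both groups spanned nearly the same range, and the log2 fold change was 0.02 (SE 0.58, limma adjusted p = 0.973). Without CO F0 replicate 3, in which ThrAGT rests on 3 reads, the direction turned to -0.56.

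Among the isoleucine tRFs, IleTAT had values of 218, 124 and 145 in CO F0 and 183, 50.4, 131 and 95.8 in OID F0. The lowest value of all 15 libraries was that of OID F0 replicate 2, the library with the highest share of blood, muscle and liver miRNAs, whose part in the result was not tested. The log2 fold change of IleTAT was -0.60 (SE 0.47, limma adjusted p = 0.513), and it was -0.26 without that library. IleAAT, the major isoleucine tRNA, had values of 486, 359.5 and 434 in CO F0 and 568, 273, 745 and 293 in OID F0. The OID males lay on both sides of the CO males, and the log2 fold change was 0.02 (SE 0.42, limma adjusted p = 0.973).

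MetCAT had values of 2422, 3498 and 3614 in CO F0 and 2656, 4424, 4893 and 5410.1 in OID F0. In 3 of 4 OID males it was above all CO males, while the remaining one lay near the lowest. The log2 fold change was 0.42 (SE 0.34, limma adjusted p = 0.513). It was 0.24 without CO F0 replicate 1, 0.65 without OID F0 replicate 1, and 0.076 when libraries were rescaled without GlyGCC and GluCTC.

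In F1, the question was whether sons of OID males differed from sons of CO males although both ate the control diet. Again no member passed the test. ThrTGT was higher and ThrCGT lower on average in OID sons, and the other 4 members had log2 differences of 0.28 or less in size. Shares of blood, muscle and liver miRNAs overlapped between the groups of sons. They were 1.02%, 7.5%, 4.9% and 15.9% in CO sons, and 1.45% (the shared set), 2.73% and 0.663% in OID sons. These shares rest on few reads, and the part of such cells in the values of the members was not tested. No member was called without OID F1 replicate 1 or without replicate 2, the males that share miRNA values, and each member kept its direction. An adjusted p under 0.05 was reached by 0 of 6 members, beside 0% of all tRFs. An unadjusted p under 0.05 was reached by 0 of 6, beside 17.0%, and groups without overlap were found for 0 of 6, beside 12.8%.

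ThrTGT had values of 202, 94.3, 185 and 212 in CO F1 and 209, 150.3, 308 and 487 in OID F1. Of the OID sons, 2 were above all CO sons, and 1 was within the CO range close to its top. Their log2 fold change over CO sons was 0.66 (SE 0.40, limma adjusted p = 0.376). It was 0.36 without OID F1 replicate 4 and 0.39 without CO F1 replicate 2.

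ThrCGT had values of 520.2, 132, 307 and 287 in CO F1 and 166, 298, 107 and 294 in OID F1. Of the OID sons, 1 was under all CO sons. The log2 fold change was -0.49 (SE 0.46, limma adjusted p = 0.557), and it was -0.19 without OID F1 replicate 3.

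IleTAT had values of 319, 151, 284 and 266 in CO F1 and 213, 226, 115 and 309 in OID F1. The groups covered nearly the same range, with a log2 fold change of -0.27 (SE 0.36, limma adjusted p = 0.599). Without OID F1 replicate 3, the lowest of the sons, it was 0.003.

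IleAAT had values of 446, 263, 935 and 786 in CO F1 and 595, 592, 520.1 and 1016 in OID F1. The OID sons lay inside or just above the CO range, and the log2 fold change was 0.28 (SE 0.41, limma adjusted p = 0.622). ThrAGT had values of 679.6, 301, 432 and 473 in CO F1 and 359, 522, 397 and 694 in OID F1. Here too the ranges coincided, with a log2 fold change of 0.08 (SE 0.33, limma adjusted p = 0.858).

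MetCAT had values of 2041, 3754, 2927 and 3023 in CO F1 and 3245, 2936, 3308 and 3977 in OID F1. Of the OID sons, 3 were above the CO median, and the highest value was that of an OID son. The log2 fold change was 0.22 (SE 0.27, limma adjusted p = 0.599), and it was 0.058 without CO F1 replicate 1.

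With both generations in 1 fit, 8 OID and 7 CO libraries were compared with generation as a term. An adjusted p under 0.05 was reached by 0 of 6 members, beside 10.6% of the 47 tRFs, and an unadjusted p under 0.05 by 0 of 6, beside 27.7%. The smallest p of a member was that of ThrTGT, with a log2 fold change of 0.70 (SE 0.34, limma adjusted p = 0.176, 95% interval -0.01 to 1.40). It was 0.28 in libraries of at least 100000 tRF reads and 0.27 in limma-voom on the reads. ThrCGT differed in the other direction, by -0.66 (SE 0.36, limma adjusted p = 0.194, 95% interval -1.41 to 0.08). IleTAT had a log2 fold change of -0.42 (limma adjusted p = 0.327), MetCAT 0.32 (0.327), IleAAT 0.16 (0.71) and ThrAGT 0.05 (0.914). Changes within each member's own interval remain possible, and these intervals reach down to -1.41 for ThrCGT and up to 1.40 for ThrTGT. The difference between the 2 generations in the effect of diet was tested as an interaction, with an adjusted p of 0.988 for each member in limma and 0 of 6 called, beside 0% of all tRFs.

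**Figure D3:**
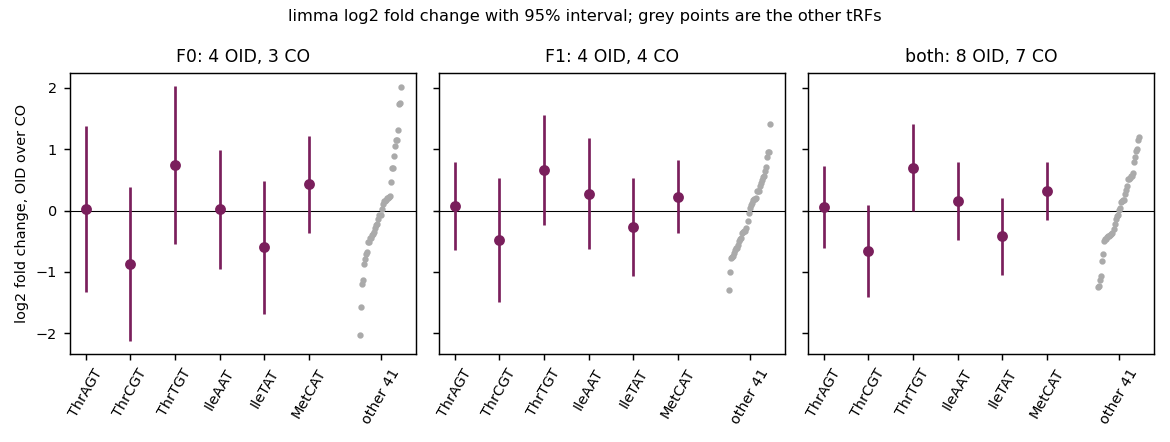
limma log2 fold change of OID over CO (y axis) with its 95% interval for each member, in F0, F1 and both generations together, and the other 41 tRFs as grey points in order of size. All 6 members' intervals include 0 in each panel, and the grey points reach further from 0 than the members do.

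Other tRNAs that read codons beginning with A, which also carry t6A, are AsnGTT, LysCTT, LysTTT, SerGCT, ArgTCT and ArgCCT. Of these 6, none had an adjusted p under 0.05 in limma in F0, F1 or both generations. In F0 1 of them had an unadjusted p under 0.05 (LysTTT, higher) and in F1 1 (LysCTT, lower). Their median log2 fold change was 0.32 in F0 and -0.19 in F1, beside 0.02 and 0.15 for the members and 0.02 and 0.08 for all tRFs. A further 6 tRNAs also start their anticodon with an adenosine that becomes inosine, AlaAGC, ProAGG, ValAAC, SerAGA, ArgACG and LeuAAG. Their medians were -0.27 in F0 and -0.32 in F1, none had an adjusted p under 0.05, and ValAAC (higher, F0) and AlaAGC (lower, F1) had an unadjusted p under 0.05.

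The direction of ThrCGT and ThrTGT was examined as a share of the threonine reads of each library, a measure that does not depend on tRFs of other amino acids. The 3 threonine shares add up to the whole in each library. A higher share of ThrTGT and a lower one of ThrCGT are therefore not separate findings. In F0, ThrTGT took 16.8% ± 7.04 of threonine reads in CO males (SD, n = 3) and 30.3% ± 9.36 in OID males (SD, n = 4). The difference of 13.5 percentage points gave p = 0.114 in a two-sided exact permutation test, where 0.0571 is the smallest possible, and an adjusted p of 0.229 over the 8 share comparisons. The CO mean includes CO F0 replicate 3, where 1 of 10 reads was ThrTGT, and without that library the difference was 10.1 points. In F1, the means were 18.5% ± 3.17 and 28.7% ± 9.64 (SD, n = 4 each), a difference of 10.2 points (exact permutation p = 0.114, adjusted p = 0.229). Neither difference passed the test, and 1 OID male of F0 (17.4%) and 1 OID son (15.5%) lay within the range of their CO groups.

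ThrCGT made up 36.7% ± 20.9 of threonine reads in F0 controls (SD, n = 3) and 19.9% ± 4.19 under OID (SD, n = 4), a difference of -16.8 points (exact permutation p = 0.171, adjusted p = 0.274). The CO mean rests in part on CO F0 replicate 3, where 6 of 10 reads were ThrCGT (60%, 95% Wilson interval 31.3% to 83.2%), and without that library the difference was -5.16 points. In F1, ThrCGT took 31.2% ± 5.17 and 21.6% ± 7.27 (SD, n = 4 each), a difference of -9.59 points (exact permutation p = 0.0857, adjusted p = 0.229). ThrAGT took near the same share in all groups, 46.5% ± 14.4 (CO) and 49.8% ± 5.82 (OID) in F0 and 50.3% ± 4.65 (CO) and 49.7% ± 2.89 (OID) in F1 (exact permutation p = 0.743 in F0 and 0.886 in F1, n = 3 or 4 a group).

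ThrCGT exceeded ThrTGT in 6 of 7 CO libraries and in 2 of 8 OID libraries, a count that was chosen after the values were seen and has no test. The log2 ratio of ThrTGT to ThrCGT reads was -0.89 ± 0.9 in CO (SD, n = 7) and 0.48 ± 0.87 in OID libraries (SD, n = 8). It ranged from -2.58 to 0.3 in CO and from -0.99 to 1.53 in OID libraries, so that both sets overlapped. The lowest ratio, that of CO F0 replicate 3, rests on 1 ThrTGT and 6 ThrCGT reads, and that of CO F1 replicate 2 on 5 and 7.

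Of the isoleucine reads, IleTAT took 27.2% ± 3.25 in F0 controls (SD, n = 3) and 19.8% ± 5.35 under OID (SD, n = 4). The 4 OID males lay at 24.3%, 15.5%, 14.9% and 24.6%, under the CO males at 30.9%, 25.7% and 25%, although the interval of CO F0 replicate 3, with 3 of 12 reads, reached from 8.89% to 53.2%. The difference of -7.38 points had the smallest p that 3 against 4 libraries allow (exact permutation p = 0.0571, adjusted p = 0.229). In F1 the means were 31.6% ± 8.83 and 23.8% ± 4.27 (SD, n = 4 each), a difference of -7.81 points with overlapping groups (exact permutation p = 0.229, adjusted p = 0.305), which was -4.47 points without CO F1 replicate 1. This separation in F0 was the only one among the 8 share comparisons. For normalized values, groups without overlap were found for 21.3% of all tRFs in F0 and 12.8% in F1. The gap lay between 24.6% and 25%, and the latter rests on 3 of 12 reads.

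**Figure D4:**
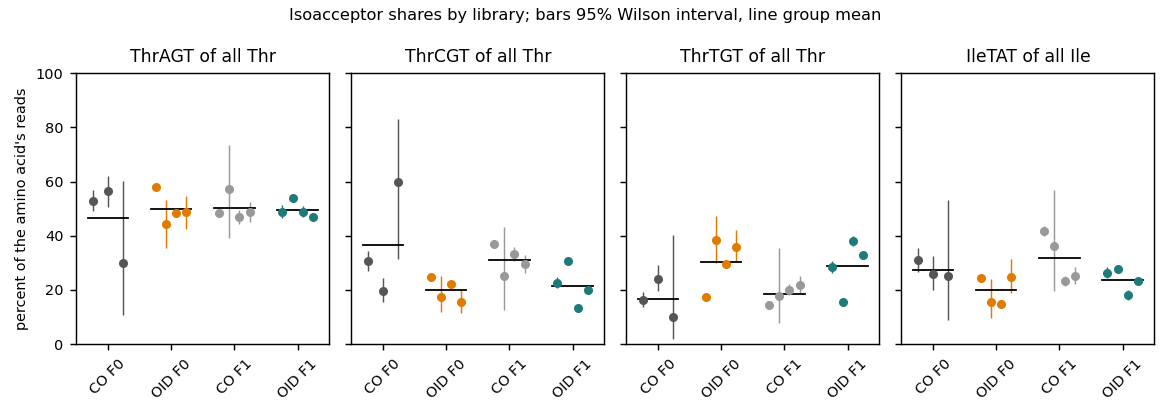
Share of each threonine isoacceptor among threonine reads, and of IleTAT among isoleucine reads (y axis, percent), by library in the 4 groups (x axis), with 95% Wilson intervals that cover counting error only and the group mean as a line. ThrAGT stays near 50% in most libraries, and the widest intervals are those of CO F0 replicate 3 and CO F1 replicate 2.

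Generations were compared within each diet line, using the same libraries as the diet comparisons. Between F0 and F1 males of the CO line, 5 of 6 members had a higher mean log2 value in F1 and MetCAT a lower one. Of all 47 tRFs, 27 were higher in F1. The members' limma adjusted p-values were between 0.84 and 0.895. An adjusted p under 0.05 was reached by 0 of 6 members, beside 0% of all tRFs, and groups without overlap were found for 0 of 6, beside 4.26%. In the OID line, the same 5 members had higher and MetCAT lower values in F1, beside 23 of 47 tRFs that were higher. IleTAT had a log2 fold change of 0.97 there (SE 0.42, limma adjusted p = 0.249, exact permutation p = 0.0857), with all 4 sons above the F0 median and overlapping groups. An adjusted p under 0.05 was reached by 0 of 6 members (0% of all tRFs), an unadjusted one by 1 of 6 (17.0%), and no member separated the groups (2.13%). The F1 libraries of the OID line had 2.76 times the median depth of the F0 libraries, and with log2 depth as a covariate the value of IleTAT was 0.38. In the CO line, the F1 libraries had 2.5 times the median depth. With the covariate, the CO line values were 0.003 for ThrAGT, -0.087 for ThrCGT and 0.022 for ThrTGT. They were 0.14 for IleAAT, 0.38 for IleTAT and 0.082 for MetCAT. The part of depth in the differences between generations was not tested.

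Values of the members moved with the depth of the library. Within groups, the slope of the log2 value on log2 depth was 0.29 for ThrAGT (r = 0.85), 0.24 for ThrCGT (r = 0.63), 0.21 for IleTAT (r = 0.70), 0.21 for ThrTGT (r = 0.57) and 0.17 for IleAAT (r = 0.56), while MetCAT had a slope of -0.12 (r = -0.70). Over all 47 tRFs the slopes ran from -0.26 to 0.43 with a median of 0.02, and ThrAGT had the 3rd highest of them. These are descriptions over 15 libraries that share the depth on both axes.

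With log2 depth as a covariate in both generations, 3 of 6 members passed the test, beside 27.7% of the 47 tRFs in the same fit, and these 3 were lower in OID. The log2 fold changes were -1.38 for ThrCGT (SE 0.40, limma adjusted p = 0.0239), -1.04 for IleTAT (SE 0.32, adjusted p = 0.0239) and -0.80 for ThrAGT (SE 0.28, adjusted p = 0.0455). In the same fit MetCAT was at 0.67 (adjusted p = 0.0558) and ThrTGT at 0.08. Depth and diet moved together, since the OID libraries were the deeper ones, so their parts cannot be told apart in these libraries. Over libraries with at least 100000 tRF reads and without the covariate, ThrCGT was at -0.79 (limma adjusted p = 0.0968), IleTAT at -0.57 (0.147), ThrAGT at -0.31 (0.428), and ThrTGT at 0.28 was not called either.

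**Figure D5:**
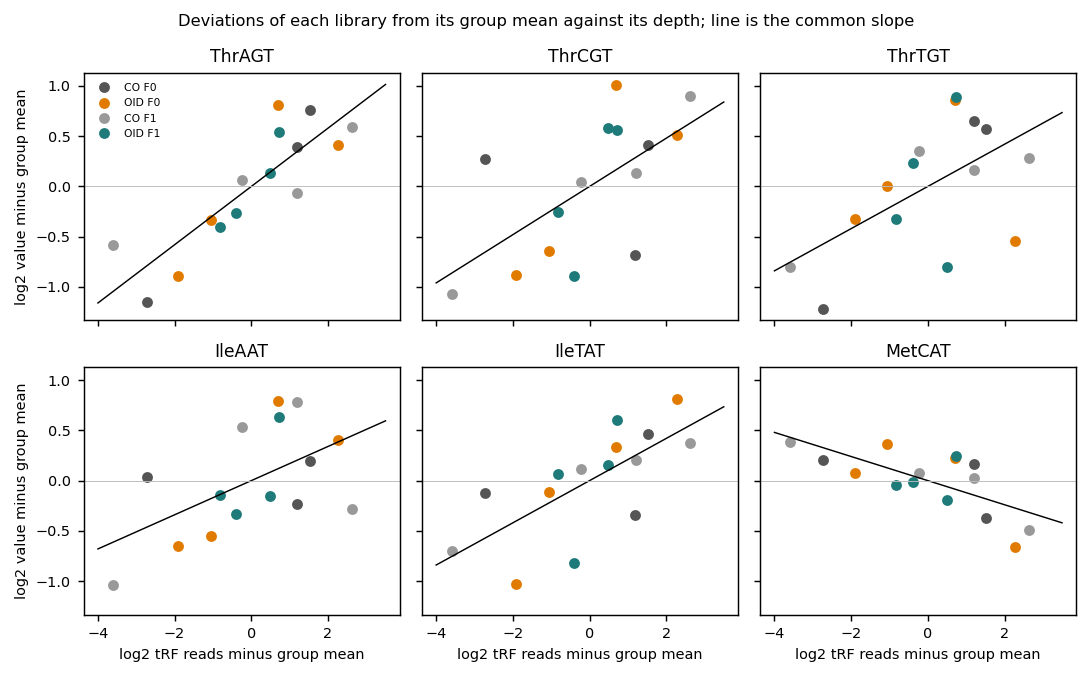
Log2 value of each member minus its group mean (y axis) against log2 tRF reads minus the group mean (x axis), with 1 point per library coloured by group and the common slope as a line. The slope is positive for the 3 threonine and the 2 isoleucine tRFs, 0.17 to 0.29, and -0.12 for MetCAT.

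Across the 15 libraries, the members did not move as 1 set. ThrCGT and IleTAT had a Pearson r of 0.85 and ThrAGT and IleTAT one of 0.69. Among pairs that carry the same amino acid, r was 0.69 for ThrAGT and ThrTGT, 0.59 for ThrAGT and ThrCGT, 0.69 for IleAAT and IleTAT, and 0.05 for ThrCGT and ThrTGT. MetCAT ran against IleTAT (r = -0.66) and ThrCGT (r = -0.63). Among all 47 tRFs, the pattern most like that of ThrAGT was IleTAT (r = 0.69), that of ThrCGT was AlaTGC (r = 0.88), and that of ThrTGT was ValTAC (r = 0.72). The pattern most like IleAAT was LeuTAG (r = 0.79), that most like IleTAT was AspGTC (r = 0.88), and that most like MetCAT was AsnGTT (r = 0.68). These r are over 15 log2 values that share depth and scaling within a library, and describe the libraries only.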

How the data were processed

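Adapters were removed by the authors (Trimmomatic), reads were placed on GRCm38/mm10, tRNAs were assigned by blastn, reads shared between tRNAs entered with a weight, and the result was normalized to what they call TPM. The submitters' processing notes also name Bowtie2 2.3.4.1 and DESeq2. The authors deposited 1 table of normalized signal per tRF or miRNA and library. It was not treated as TPM, since 1 library summed to 1128164 over all entries, more than TPM allows. All 705 tRF values were whole multiples of 1 step per library after removal of 0.5, to within 0.001 reads, which gave the reads. The miRNA entries carry another factor and were used for reads only.

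Groups and replicate numbers came from the labels. limma 3.58.1 (R 4.3.3) was fitted to log2(value + 1) of the 47 tRFs, with Benjamini-Hochberg adjustment and a threshold of 0.05. On this scale changes of low tRFs are understated. In simulated data with 10 tRFs changed by 2 on the log2 scale, 86.4% were recovered in the F0 design, 88.2% in F1 and 97.4% in both. False calls per simulated set were 0.62, 0.42 and 0.48. The simulated spread was independent between tRFs. Smaller changes, such as those estimated for the members, were not simulated, so these rates do not tell how often such changes would be found. For shares of threonine or isoleucine reads, exact permutation tests (two-sided, scipy 1.17.1) were adjusted over 8 comparisons. Wilson intervals (95%) cover counting error only, since reads are not independent molecules. Deviations of same-numbered males correlated weakly (on average 0.059 in F0, 0.028 in F1), so numbers were not used as pairs. Figures used Python 3.11.15 and matplotlib 3.10.9.

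The members and lists were chosen with earlier results of these data known. Named are the 6 members in each comparison, the tRF most correlated with each, and the lists by their counts and medians. The alternatives were other pseudocounts (0.1 and 10), filters, scalings, spread estimates, limma-voom on recovered reads, depth as a covariate, deep libraries only, a replicate block, and each library left out in turn. Sequences and loci are from RefSeq and GENCODE M21 on GRCm38.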

Additional observations from a re-analysis of the deposited data

How the results depend on the processing

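Over all alternatives, each library left out included, 585 of 636 values of single members kept their direction and side of the threshold, and 195 of 220 counts and shares did so or, for counts, stayed within 1.5 times. The number of tRFs called (0 in F0, 0 in F1, 5 in both generations) became 5 in F0 with at least 10 reads in every library and 6 with all 4 groups in 1 fit, and 3 in F1 as percent of summed values. In both generations it became 8 with a pseudocount of 10 or an intensity trend, 3 with rescaling without GlyGCC and GluCTC or with limma-voom, 2 as percent of summed values, 13 with depth as covariate and 2 with the replicate block. The replicate block gave 1 call between CO generations and no call of a member. The only calls of members in any setting were the 3 with the depth covariate. Leaving out 1 library gave 0 to 2 calls in F0, 0 to 1 in F1, 2 to 10 in both generations (2 without CO F0 replicate 2 or 3, 3 without OID F0 replicate 4, 10 without CO F1 replicate 2, 9 without OID F1 replicate 4) and 0 to 2 between OID generations, and ThrAGT shares of -4.91 to 8.27 points in F0 and -1.99 to 1.68 in F1. The cause of these shifts was not tested.

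Some log2 differences turned in direction, most of them small in the main comparison but also ThrTGT in F0 (0.74), ThrCGT between OID generations (0.61) and ThrTGT between CO generations (0.52, and -0.088 without CO F0 replicate 3). As percent of summed values ThrAGT was at -0.11 (F0), -0.076 (F1) and -0.094 (both), IleAAT at -0.12 (F0) and MetCAT between CO generations at 0.032. Rescaled without GlyGCC and GluCTC, ThrAGT was at -0.33 (F0) and -0.068 (both) and IleAAT at -0.33 (F0). In limma-voom ThrAGT was at -0.17 (F0), -0.17 (F1) and -0.24 (both), IleAAT at -0.016 (both) and MetCAT between CO generations at 0.002. With depth as covariate ThrAGT was at -1.22 (F0), -0.47 (F1) and -0.80 (both), ThrTGT at -0.002 (F0), IleAAT at -0.46 (F0), -0.26 (F1) and -0.35 (both), ThrCGT at -0.087 (CO generations) and -0.04 (OID generations), and MetCAT at 0.082 (CO generations). In libraries of at least 100000 reads ThrAGT was at -0.56 (F0), -0.12 (F1) and -0.31 (both), IleAAT at -0.07 (F1) and -0.023 (both), and the ThrAGT share at -4.91 (F0) and 1.68 points (F1). With 1 library left out, the ranges that crossed 0 were, in F0, -0.56 to 0.40 for ThrAGT and -0.25 to 0.24 for IleAAT, in F1 -0.12 to 0.27 for ThrAGT, -0.07 to 0.54 for IleAAT and -0.50 to 0.003 for IleTAT, in both generations -0.18 to 0.21 for ThrAGT and -0.026 to 0.28 for IleAAT, and between CO generations -0.096 to 0.86 for ThrAGT, -0.12 to 0.58 for ThrCGT, -0.088 to 0.85 for ThrTGT and -0.31 to 0.039 for MetCAT. In the shallowest library, values of the rarer members rest on 1 to 9 reads.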
